A study of Mus musculus with 12 samples.

Results

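Whole testes of mice aged 28 days after birth (PND 28) were compared with those of mice aged 7 days (PND 7), the ends of the series. The comparison takes in every mouse of these ages, 2 at each, so 4 of the 10 mice and 6 of the 12 sequencing libraries of the study enter it. The study followed testis RNA at 5 ages, PND 7, 14, 17, 21 and 28, with 2 mice per age. The RNA was depleted of ribosomal RNA and sequenced on a SOLiD instrument, so transcripts with and without a poly(A) tail were read. All mice were untreated C57BL/6NHsd males with no introduced allele, and their testes were frozen as a whole, so each library holds germ cells and somatic cells together. Each PND 7 mouse was sequenced under a pair of barcodes, which were summed here, and every other mouse under 1.

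The seminiferous tubule fills up in an ordered way after birth. At PND 7 its germ cells are spermatogonia, the mitotic stem and progenitor cells, which lie among Sertoli cells that still divide. Germ cells of this first wave then enter meiosis as spermatocytes, and become round spermatids, which build an acrosome and a tail and replace their histones by transition proteins and protamines. Outside the tubule lie the contractile peritubular cells, Leydig cells that make androgens, vessels and macrophages. Each value is a portion of one sample's RNA, and in such bulk tissue a fall in the number of cells of a type and a fall in RNA per cell cannot be told apart.

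The 4 mice had 9656345 and 7037654 counts assigned to genes at PND 7, and 8830079 and 5150882 at PND 28, within a range of 3994026 to 13559548 over all 10 mice. The 2 mitochondrial ribosomal RNAs took 36.1% and 35.4% of the counts at PND 7 and 14.9% and 15.3% at PND 28. The tissue label was checked with cell type markers. The germ cell helicase *Ddx4*, the Sertoli cell genes *Sox9* and *Cst9*, the Leydig cell genes *Insl3* and *Star*, and *Acta2* and *Myh11* of peritubular cells were all detected in each of the 4 mice. In several libraries, transcripts stood apart from the other mouse of the same age. PND 14 mouse 1 had 479 counts of the protamine gene *Prm1* and 554 of the sperm tail gene *Akap4*, against 8 and 23 in PND 14 mouse 2. Counts of genes by their course over the ages are therefore given with and without that mouse. In the comparison of the ends it entered the filter on low counts, the scaling and the estimate of the spread. PND 7 mouse 2 had 466 counts of the epididymal secretory gene *Crisp1* and 675 of *Spink8*, against 3 of each in PND 7 mouse 1. The most were in PND 17 mouse 1, with 2430 of *Crisp1*, 2839 of *Spink8* and 174 of *Adam7*, against 2, 15 and 0 in PND 17 mouse 2. PND 28 mouse 1 had 41 counts of *Adam7* and 6 of *Lcn8*, both epididymal, against 0 of each in PND 28 mouse 2. Of 12 epididymal genes listed, 4 passed the filter on low counts. Among these *Cst8* and *Rnase10* were higher at PND 28, beside 32.2% of all genes tested. The summed level of the whole list in CPM, counts scaled to a common library size, was 11.7 and 88.7 at PND 7 and 169 and 209 at PND 28. Of these sums *Crisp1* made up 0.300 and 62.6 CPM at PND 7, and *Cst8*, which is expressed in testis too, 149.7 and 202 CPM at PND 28. The part of epididymal RNA in the results was not tested.

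Most genes that could be tested differed between the ends. Of 16860 genes, 5430 were higher at PND 28 (32.2%) and 3948 were lower (23.4%), so that 9378 were called in all (55.6%). A gene was called at a Benjamini-Hochberg adjusted p under 0.05 in edgeR's quasi-likelihood test, over all genes tested, with a fold change of at least 2. The adjusted p-values below come from that test, each log2 fold change is PND 28 over PND 7 with its standard error (SE), and each pair of CPM values gives mouse 1 before mouse 2. The model was fitted to all 10 mice, so that the ages shared an estimate of the spread. An exact permutation test of 2 mice against 2, which was not run, cannot go below a two-sided p of 0.333. In 9362 of the 9378 called genes the mice of the ages did not overlap. Over all genes tested, 43.8% had both PND 28 mice above both PND 7 mice and 37.4% had them below. No source says whether the mice were littermates, and the p-values measure the spread between mice of one age only.

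The rises were larger than the falls. The median log2 fold change was 3.52 among the genes called higher and -1.95 among those called lower, and 0.10 over all genes tested. At least 16-fold differences were fitted for 2483 genes that rose and 252 that fell, and at least 64-fold differences for 1832 and 49. Many of the rises started from nothing detected. Of 1263 genes with 0 counts in both PND 7 mice, 1256 were higher at PND 28, while 57 genes had 0 counts in both PND 28 mice and 44 of these were called lower. A gene with no count at PND 7 could pass the filter only through older mice, so its call follows in part from the filter. For such genes the fold change is given as a lower bound, taken against 3 counts over both mice, which is 0.172 CPM at PND 7 and 0.257 CPM at PND 28. Bounds and counting intervals cover counting error only.

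Genes were ranked by the fitted log2 fold change among those averaging 10 CPM or more across the 4 mice. A fitted value over 0 counts is arbitrary, and the 12 rises ranked first all had 0 counts at PND 7, so their place follows from the ranking and genes with a count or 2 at PND 7, such as *Ldhc*, are not among them. All 12 stood at 638 CPM or more at PND 28. The list was headed by *Crisp2* (ENSMUSG00000023930, mm9 chr17:40901683-40943952), a cysteine-rich secretory protein of the acrosome and tail. It had 0 CPM in both PND 7 mice and 2877 and 2822 CPM at PND 28, at least 16558-fold higher (adjusted p = 4.54e-07). *Akap4* (ENSMUSG00000050089, chrX:6644645-6655735), which anchors protein kinase A in the fibrous sheath of the tail, went from 0 and 0 to 1906 and 2836 CPM, at least 13775-fold higher (adjusted p = 3.97e-05). *Tnp2* (ENSMUSG00000043050, chr16:10788029-10788748), a transition protein, had 0 and 0 against 1508 and 1697 CPM, at least 9313-fold (adjusted p = 1.65e-05). The ages were thus separated by a whole expression range for these genes, with the 2 mice of an age close together.

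The other 9 of the 12 had bounds between 5489-fold and 8132-fold. *Spata4*, a gene named for spermatogenesis, had 0 and 0 against 1417 and 1382 CPM, and *Spz1*, a testis transcription factor, 0 and 0 against 929 and 1112 CPM. *Prm1* (ENSMUSG00000022501, chr16:10796419-10796979), a protamine that packs sperm DNA, had 0 and 0 against 1163 and 1388 CPM, at least 7410.2-fold higher (adjusted p = 0.000116). *Pgk2* and *Gk2* encode testis forms of phosphoglycerate kinase and glycerol kinase. *Pgk2* rose from 0 and 0 to 935 and 1181 CPM and *Gk2* from 0 and 0 to 1155 and 1067 CPM. The last 4 were *Cmtm2a*, 1700123L14Rik, *Heatr7b2* and *Fsip2*, of which *Fsip2*, a large protein of the fibrous sheath, differed most between the PND 28 mice, at 638 and 1252 CPM. *Gk2*, *Spata4* and 1700123L14Rik overlap another gene on the opposite strand, and *Cmtm2a* overlaps *Cmtm1* on its own strand, so reads of these neighbours may not be separable, since the use of strand in the counting is not given in the sources used here.

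**Figure D1:**
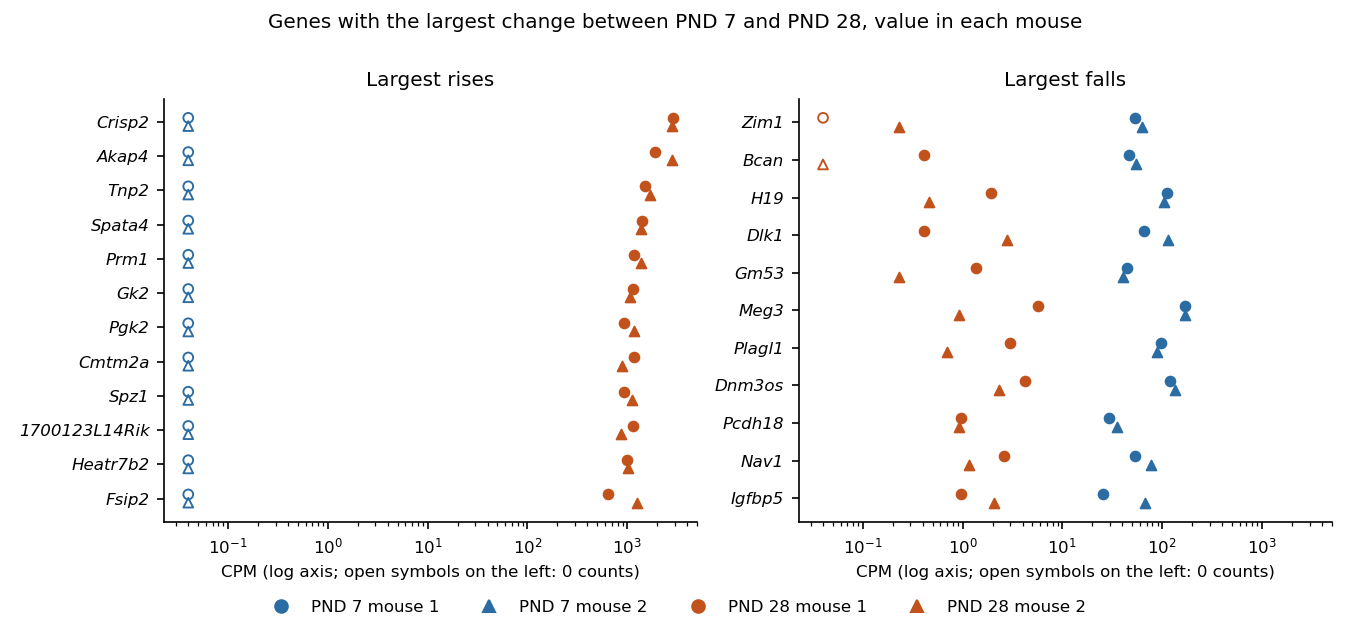
The 12 genes with the largest fitted rise (left) and 11 of the 12 with the largest fitted fall (right) from PND 7 to PND 28, in CPM on a log axis, with 1 symbol per mouse and open symbols at the left edge for 0 counts. All 12 rising genes have 0 counts in both PND 7 mice and 638 CPM or more at PND 28, and none of the falling genes shown is above 5.73 CPM at PND 28.

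Genes with the structural jobs of the spermatid rose together. Of 54 tail genes that passed the filter, of 55 listed, 54 were higher at PND 28. The same held for 37 of 38 genes of the acrosome and of egg binding, and for 13 of 16 genes of spermatid chromatin, beside 32.2% of all genes tested. Their median log2 fold changes were 9.98, 11.21 and 10.62, or 9.49, 8.58 and 7.56 with genes of 0 counts set at their bound, beside 0.10 over all genes. In these lists 23, 17 and 7 members had 0 counts at PND 7. The summed level of the tail genes rose from 97.8 and 104 CPM to 22210 and 23838 CPM, and that of the acrosome genes from 177 and 171 CPM to 12538 and 11713 CPM.

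Within spermatid chromatin, the transition protein gene *Tnp1* (ENSMUSG00000026182, chr1:73061657-73062473) had 0.601 and 0 CPM against 1607 and 2139.8 CPM, a log2 fold change of 12.36 (SE 1.51, adjusted p = 4.44e-05). *Prm2* had 0 and 0 against 397 and 433 CPM, at least 2412-fold, and *Hils1*, a spermatid linker histone, 0 and 0 against 596 and 562 CPM, at least 3364-fold. By length-scaled level (RPKM, as deposited), among protein-coding genes outside the mitochondrial genome, *Tnp1* at 3238 and 4379.9 RPKM and *Ldhc* at 3269 and 2994 RPKM led the PND 28 testis. At PND 7 the leading gene by the same measure was *Hist1h1a*, a replication-dependent linker histone, at 982 and 881 RPKM. *Hist1h2ba*, a germ cell histone, was among the leading genes at both ends, with 711 and 407 RPKM in the younger mice and 1716 and 1578 RPKM in the older ones. The 3 chromatin list members that were not called had log2 fold changes between -0.44 and 0.28.

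The acrosome genes included *Acrv1*, a protein of the acrosomal matrix, with 0 and 0 against 296 and 252 CPM, at least 1592-fold, and *Zp3r*, which has been linked to zona pellucida binding, with 0 and 0 against 222 and 248 CPM, at least 1365-fold. The mitochondrial gene *Spata19* of the sperm midpiece had 0 and 0 against 412 and 462 CPM, at least 2538-fold. *Gsg1*, named as a germ cell gene, had 0 and 0 against 673 and 625 CPM, at least 3771-fold. Not every late gene was silent at first. *Tcp11*, linked to sperm motility, had 1.80 and 1.34 CPM at PND 7 and 1404 and 1185 CPM at PND 28, a log2 fold change of 9.65 (SE 0.498, adjusted p = 3.94e-07). *Spata24* went from 7.21 and 14.8 CPM to 658 and 502 CPM (log2 fold change 5.73, SE 0.409, adjusted p = 1.25e-06). *Kif17*, a kinesin of spermatids, went from 6.11 and 1.61 CPM to 189 and 169 CPM (log2 fold change 5.49, SE 0.691, adjusted p = 5.68e-05).

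Genes of meiosis rose less and less uniformly. Of 38 meiotic prophase genes tested, 22 were higher at PND 28, 4 were lower and 12 were not called. The median log2 fold change was 1.83, and of all genes tested 32.2% were higher and 23.4% lower. *Ccna1*, the cyclin of meiotic germ cells, had 0.200 and 0 CPM at PND 7 against 202 and 156 CPM at PND 28. The ratio of its summed, scaled counts was 1610.3, with a 95% exact counting interval of 445 to 13305. *Hspa2*, a chaperone of the synaptonemal complex, rose from 21.1 and 25.1 CPM to 1671 and 1366 CPM (log2 fold change 6.04, SE 0.305, adjusted p = 3.94e-07). *Spdya*, an activator of cyclin-dependent kinases, had 6.01 and 8.33 CPM against 282 and 249 CPM (5.22, SE 0.390), and *Spo11*, which makes the meiotic double-strand breaks, 6.71 and 2.28 CPM against 102 and 105 CPM (4.49, SE 0.408).

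Transcripts of the synaptonemal complex genes *Sycp1* and *Sycp3* were present already at PND 7. *Sycp1* had 111 and 105 CPM at PND 7 against 435 and 410 CPM at PND 28 (log2 fold change 1.97, SE 0.245, adjusted p = 5.18e-05), and *Sycp3* had 56.6 and 49.8 CPM against a mean of 284 CPM (SD 48.4, n = 2) (2.42, SE 0.262, adjusted p = 1.99e-05). Both were chosen after their values were seen. The 4 meiotic genes that fell included *Prdm9*, the methyltransferase that places recombination sites, *Tex11*, an X-linked recombination gene, and *Tex19.1*. *Prdm9* went from 17.4 and 11.6 CPM to 3.0 and 4.15 CPM (log2 fold change -2.04, SE 0.384, adjusted p = 0.000878), and *Tex11* from 113 and 85.9 CPM to 37.6 and 40.4 CPM (-1.35, SE 0.227, adjusted p = 0.000422). *Tex19.1* fell by little more than 2-fold, by 1.06 on the log2 scale, and by 0.97 and 0.89 without PND 7 mouse 1 and PND 28 mouse 2. With the size factors of DESeq2 (RLE) it was short of 2-fold and 2 meiotic genes were lower, and 7 were lower without PND 7 mouse 2.

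The piRNA pathway, which silences transposons in germ cells and processes long transcripts of spermatocytes, rose in most of its members. Of 23 genes tested, 20 were higher, 1 was lower and 2 were not called, beside 32.2% higher over all genes tested. The median log2 fold change was 2.77. *Piwil1*, the Argonaute protein that appears with pachytene spermatocytes, had 2.90 and 2.96 CPM at PND 7 and 449 and 441 CPM at PND 28 (log2 fold change 7.24, SE 0.363, adjusted p = 3.94e-07). *Tdrd6*, a tudor protein of the chromatoid body, had 1 count at PND 7, or 0.10 and 0 CPM, against 715 and 1019.6 CPM. Its ratio was 14431, with a 95% exact counting interval of 2589.5 to 570069.8.

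Other members of the germ granules started higher. The helicase *Ddx25* went from 26.1 and 18.3 CPM to 974 and 910.2 CPM (log2 fold change 5.40, SE 0.342) and *Ddx4* from 108 and 73.0 CPM to 705 and 741 CPM (3.0, SE 0.306). *Mael*, chosen after its values were seen, went from 121 and 63.6 CPM to 2215 and 1768 CPM (4.43, SE 0.408). The single member that fell was *Piwil4*, the Argonaute protein of fetal and neonatal germ cells, from 5.71 and 9.81 CPM to 0.818 and 0.923 CPM (log2 fold change -3.14, SE 0.617, adjusted p = 0.00112).

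A set of 30 pairs joined a widely used gene to a relative that is known for expression in male germ cells. Both genes of 29 pairs passed the filter on low counts, and the germ cell form *Eif4e1b* did not. Of the 29 germ cell forms, 28 were higher at PND 28 and 1 was lower. Of their widely used relatives, 4 were higher, 12 were lower and 13 were not called, and over all genes tested 32.2% were higher and 23.4% lower. Medians of the log2 fold change were 4.43 and -0.76. In 12 pairs the calls crossed, with the germ cell form up and the other down.

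Enzymes of glycolysis and respiration were among the clearest pairs. *Ldhc* (ENSMUSG00000030851, chr7:54116573-54133512), the lactate dehydrogenase of germ cells, had 0.200 and 0 CPM at PND 7 and 6132 and 5529 CPM at PND 28, a ratio of 51494 with a 95% exact counting interval of 14254 to 425209. Its neighbour *Ldha* (ENSMUSG00000063229, chr7:54096845-54110997) also rose, from 8.51 and 25 CPM to 307 and 299 CPM (log2 fold change 4.19, SE 0.535, adjusted p = 6.25e-05). By RPKM, *Ldhc* made up 3.72% and 0% of the pair's level at PND 7 and 97.4% and 97.2% at PND 28. The pyruvate dehydrogenase subunits crossed. *Pdha1*, X-linked, fell from 44.9 and 58.0 CPM to 14.0 and 15.7 CPM (log2 fold change -1.79, SE 0.305), while *Pdha2* rose from 4.2 and 0 CPM to 204 and 169 CPM (6.35, SE 0.817). Cytochrome c, which carries electrons in respiration, crossed as well. *Cycs* fell from 14.2 and 19.6 CPM to 4.23 and 1.38 CPM (-2.51, SE 0.527), and *Cyct* rose from 3.8 and 6.05 CPM to 96.5 and 86.8 CPM (4.23, SE 0.386). *Gapdhs*, the glyceraldehyde-3-phosphate dehydrogenase of the sperm tail, had 0 and 0 CPM against 412 and 419 CPM, at least 2415-fold higher. *Gapdh* and *Pgk1* have many near-identical copies in the genome and only uniquely placed reads were counted, so their low values, 2.69 RPKM in each PND 7 mouse for *Gapdh*, are uncertain.

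Of the widely used genes, 12 lie on the X chromosome, which is silenced in meiosis, and 7 of these fell, beside 40.7% of all X-linked genes tested. *Rbmx*, an RNA-binding protein, fell from 60.6 and 76.6 CPM to 6.13 and 5.54 CPM (log2 fold change -3.54, SE 0.453), and its autosomal copy *Rbmxl2* rose from 6.51 and 0 CPM to 39.8 and 29.8 CPM (3.34, SE 0.902). The cohesin gene *Smc1a* fell from 66.0 and 71.2 CPM to 16.4 and 13.2 CPM (-2.21, SE 0.243), and the meiotic *Smc1b* rose from 105 and 88.5 CPM to 373 and 432 CPM (2.05, SE 0.236). The helicase *Ddx3x* fell from 109.9 and 145 CPM to 40.9 and 47.8 CPM (-1.52, SE 0.229) while *D1Pas1* rose from 10.7 and 7.52 CPM to 226 and 277 CPM (4.77, SE 0.351). *Zfx*, *Rpl39* and *G6pdx* were the remaining X-linked genes to fall, and *G6pdx* was short of 2-fold with RLE scaling (-0.85), DESeq2 (-0.85), the 4 mice alone (-0.94) and without PND 7 mouse 1 (-0.98) or PND 28 mouse 1 (-0.92). On the autosomes, *Ccna2* fell from 71.4 and 69.2 CPM to 22.1 and 25.8 CPM (-1.56, SE 0.282) as its meiotic relative *Ccna1* rose.

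The exception lay on the X chromosome itself. *Taf7l*, the X-linked germ cell form of a TFIID subunit, fell from 113 and 108 CPM to 49.9 and 55.2 CPM (log2 fold change -1.07, SE 0.205, adjusted p = 0.000982), but by less than 2-fold with RLE scaling (-0.91), DESeq2 (-0.91), the 4 mice alone (-0.99) or without PND 28 mouse 1 (-0.99). It is the only X-linked germ cell form of the set. The widely used genes that rose were *Ldha*, *Tbp*, *Pabpc1* and *Ppp3ca*. *Tbp*, the TATA-binding protein, went from 43.0 and 43.3 CPM to 197 and 156 CPM (2.03, SE 0.211), and *Pabpc1*, a poly(A)-binding protein, from 60.2 and 64.4 CPM to 346 and 372 CPM (2.53, SE 0.263).

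**Figure D2:**
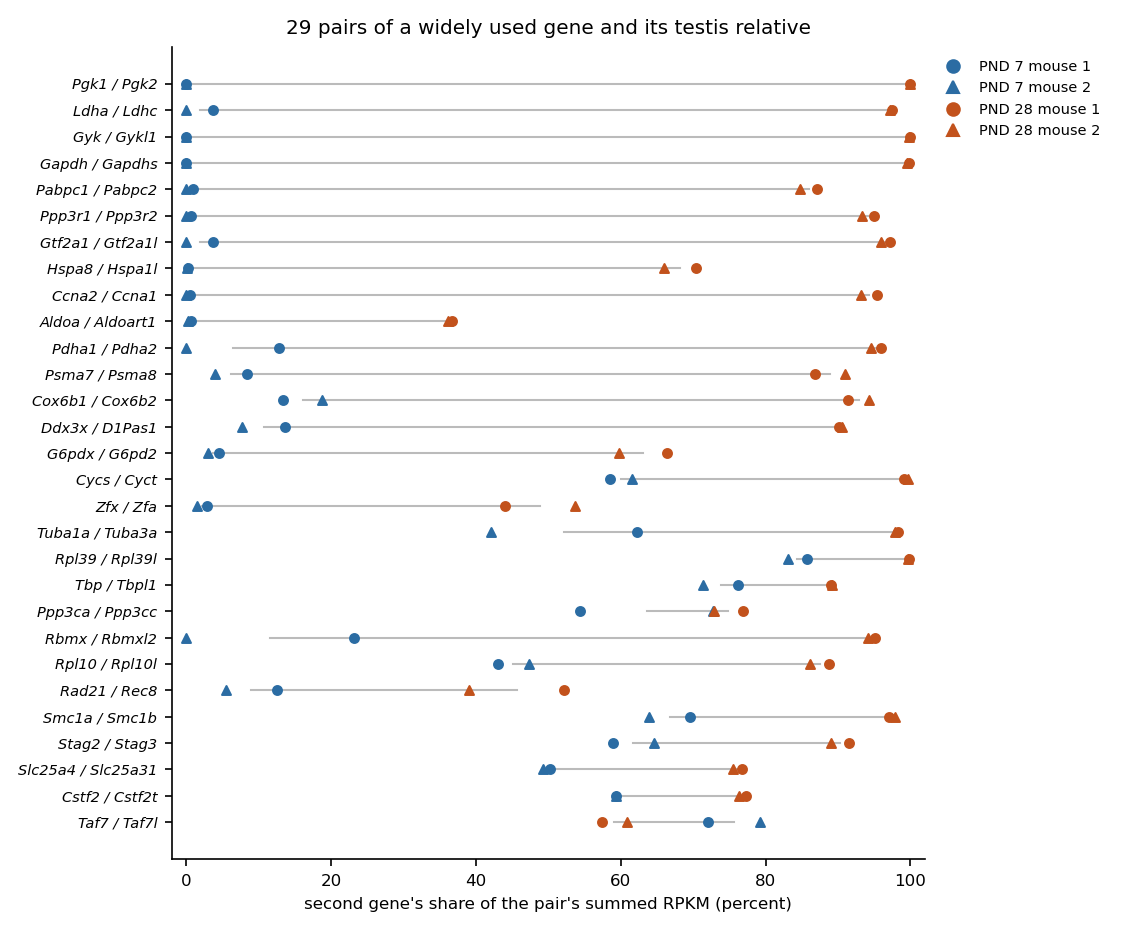
Share of the germ cell form (named second) in the summed RPKM of each of 29 pairs, in percent, with 1 symbol per mouse and a line joining the means of the ages. The share is higher in both PND 28 mice than in both PND 7 mice in 28 of the 29 pairs, as for *Cyct* with 58.5% and 61.5% at PND 7 and 99.2% and 99.7% at PND 28, and it is lower for *Taf7l*, with 72.0% and 79.3% at PND 7 and 57.4% and 60.9% at PND 28.

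Promoter sequences of 3 of these pairs and of *Akap4* and *Prm1* are shown so that the start regions of genes coding for like proteins can be read beside their values. Each run holds 300 bases from RefSeq on GRCm38.p6, from 250 before to 50 after the start of the gene, read 5′ to 3′ on the gene's strand, and the capitals mark CpG dinucleotides. The positions are given on that build, which differs from the mm9 of the counts.
Ldha, chr7:46845554-46845853, plus strand: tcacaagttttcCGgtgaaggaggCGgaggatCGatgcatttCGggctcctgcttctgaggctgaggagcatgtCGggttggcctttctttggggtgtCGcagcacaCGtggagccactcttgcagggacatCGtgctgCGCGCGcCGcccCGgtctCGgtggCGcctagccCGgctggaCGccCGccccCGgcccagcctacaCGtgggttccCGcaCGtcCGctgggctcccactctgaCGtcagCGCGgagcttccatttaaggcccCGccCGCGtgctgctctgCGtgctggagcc
Ldhc, chr7:46861013-46861312, plus strand: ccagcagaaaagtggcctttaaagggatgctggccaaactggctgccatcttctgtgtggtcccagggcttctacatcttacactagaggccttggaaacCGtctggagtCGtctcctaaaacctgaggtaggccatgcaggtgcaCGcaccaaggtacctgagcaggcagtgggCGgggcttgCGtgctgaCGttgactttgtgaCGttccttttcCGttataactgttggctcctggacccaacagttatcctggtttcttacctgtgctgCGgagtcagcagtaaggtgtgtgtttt
Pgk1, chrX:106186850-106187149, plus strand: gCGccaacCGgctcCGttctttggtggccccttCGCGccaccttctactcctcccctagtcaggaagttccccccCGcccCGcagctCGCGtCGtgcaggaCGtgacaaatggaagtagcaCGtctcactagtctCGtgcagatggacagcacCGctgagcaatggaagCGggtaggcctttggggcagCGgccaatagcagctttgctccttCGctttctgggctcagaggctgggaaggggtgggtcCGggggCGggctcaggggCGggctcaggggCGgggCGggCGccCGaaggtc
Pgk2, chr17:40208560-40208859, minus strand: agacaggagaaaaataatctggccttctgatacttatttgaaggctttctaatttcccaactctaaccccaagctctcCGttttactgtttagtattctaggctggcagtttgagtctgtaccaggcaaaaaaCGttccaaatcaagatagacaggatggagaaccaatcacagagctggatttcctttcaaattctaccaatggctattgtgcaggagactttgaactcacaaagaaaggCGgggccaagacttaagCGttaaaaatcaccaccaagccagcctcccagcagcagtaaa
Cycs, chr6:50566520-50566819, minus strand: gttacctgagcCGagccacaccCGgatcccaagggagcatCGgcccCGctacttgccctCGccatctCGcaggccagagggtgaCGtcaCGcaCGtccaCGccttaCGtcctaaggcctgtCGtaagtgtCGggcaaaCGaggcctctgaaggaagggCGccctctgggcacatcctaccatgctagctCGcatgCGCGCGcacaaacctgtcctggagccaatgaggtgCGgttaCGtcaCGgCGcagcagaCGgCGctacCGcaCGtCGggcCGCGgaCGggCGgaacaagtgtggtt
Cyct, chr2:76360404-76360703, minus strand: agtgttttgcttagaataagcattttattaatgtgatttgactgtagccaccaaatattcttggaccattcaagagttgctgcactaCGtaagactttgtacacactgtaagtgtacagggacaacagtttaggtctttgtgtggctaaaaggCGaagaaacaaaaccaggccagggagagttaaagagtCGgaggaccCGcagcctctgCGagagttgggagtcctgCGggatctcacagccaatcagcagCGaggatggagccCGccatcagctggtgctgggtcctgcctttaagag
Akap4, chrX:7067265-7067564, plus strand: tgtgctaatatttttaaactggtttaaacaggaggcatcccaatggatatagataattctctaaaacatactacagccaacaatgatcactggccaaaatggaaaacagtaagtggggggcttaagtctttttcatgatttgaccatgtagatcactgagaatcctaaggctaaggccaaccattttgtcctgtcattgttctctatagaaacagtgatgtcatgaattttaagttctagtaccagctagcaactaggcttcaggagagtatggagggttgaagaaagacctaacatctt
Prm1, chr16:10796774-10797073, minus strand: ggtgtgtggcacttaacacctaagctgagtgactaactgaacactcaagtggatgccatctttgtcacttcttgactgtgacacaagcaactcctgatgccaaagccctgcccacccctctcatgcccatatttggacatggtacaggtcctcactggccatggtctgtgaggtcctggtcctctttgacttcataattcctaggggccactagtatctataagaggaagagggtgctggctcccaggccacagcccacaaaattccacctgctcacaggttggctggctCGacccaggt
The widely used genes had 24 to 32 CpG dinucleotides in the window and their germ cell relatives 4 to 9, while *Akap4* had 0 and *Prm1* had 1. The cyclic AMP response element TGACGTCA, searched on both strands, was found in the windows of *Ldha* and *Cycs*, starting 12 and 169 bases before the start site. The MYB site AACNGTT, also searched on both strands, was found at 27 and 7 bases before the start of *Ldhc* and 127 bases before that of *Cyct*. The motifs can share an end letter at most, and none was found in the other 4 windows.

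Over the 12261 genes tested that had such a promoter, the share with TGACGTCA was 3.12%, and it was 3.40% among genes called higher, 2.23% among those called lower, 1.91% among genes that rose at least 64-fold and 2.48% among genes that fell by 4 or more on the log2 scale. The share with AACNGTT was 3.43% over all of these promoters, 4.71% among genes called higher and 2.36% among those called lower. It was 6.60% in the fitted 64-fold class and 4.35% among genes that fell by 4 or more on the log2 scale. Genes with a large fitted rise had few CpG dinucleotides. The median was 5 per window in the fitted 64-fold class (quartiles 2 and 11). It was 19 over all genes tested, 16 for all genes called higher and 20 for those called lower. At most 3 CpG dinucleotides were found in 39.3% of the promoters of the fitted 64-fold class and in 9.02% of all promoters of genes tested. Over the whole RefSeq table of 27025 promoters, tested or not, the median was 7, and 31.9% had at most 3 CpG dinucleotides. TGACGTCA was in 1.88% of these promoters and AACNGTT in 4.36%. The fitted 64-fold class takes in genes with no count at PND 7, whose fitted values are arbitrary.

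The 12 largest falls by the same ranking included 5 that are imprinted or lie in imprinted loci by the list used here. It was headed by *Zim1* (ENSMUSG00000002266, chr7:6628154-6649161), a zinc finger gene expressed from the maternal allele, with 53.4 and 63.3 CPM at PND 7 and 0 and 0.231 CPM at PND 28. Its scaled counts were 672 times higher at PND 7 than at PND 28, with a 95% exact counting interval of 120.4 to 26573. *Bcan*, a matrix proteoglycan, had 46.6 and 55.2 CPM against 0.409 and 0 CPM, 195 times higher at PND 7 (interval 66.7 to 949.7). For both genes few reads were left at PND 28, and the intervals cover counting error only.

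Another 9 of the 12 fell by 5 or more on the log2 scale and kept reads in both PND 28 mice. The long noncoding RNA *H19* (ENSMUSG00000000031, chr7:149761434-149764048) had 113 and 104 CPM against 1.91 and 0.462 CPM (log2 fold change -6.35, SE 0.457, adjusted p = 1.3e-06). *Dlk1*, a membrane protein of the Notch family, had 66.0 and 114 CPM against 0.409 and 2.77 CPM (-6.01, SE 0.804), and its imprinted neighbour, the noncoding RNA *Meg3*, 168 and 169.8 CPM against 5.73 and 0.923 CPM (-5.53, SE 0.765). *Plagl1*, an imprinted zinc finger gene, had 98.4 and 89.3 CPM against 3.0 and 0.692 CPM (-5.52, SE 0.597). *Dnm3os*, *Gm53*, *Pcdh18*, *Nav1* and *Igfbp5* made up the rest. *H19*, *Meg3* and *Dnm3os* hold microRNA genes inside them, and *Meg3*, *Dnm3os* and *Nav1* overlap a gene on the opposite strand, so their counts may include reads of those genes.

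Imprinted genes fell as a list. Of 29 tested, 18 were lower at PND 28, 1 was higher and 10 were not called, beside 23.4% lower among all genes tested, and the median log2 fold change was -2.46 beside 0.10. Their summed level was 2741 and 2872 CPM at PND 7 and 841 and 876 CPM at PND 28. *Igf2*, a fetal growth factor, fell from 52.0 and 60.6 CPM to 3.95 and 4.38 CPM (log2 fold change -3.76, SE 0.477), and *Peg3*, chosen after its values were seen, from 239 and 276 CPM to 10.1 and 20.3 CPM (-4.11, SE 0.397, adjusted p = 9.21e-06). The one that rose was *Asb4*, part of a ubiquitin ligase, from 0.501 and 0 CPM to 89.0 and 69.7 CPM (8.05, SE 0.673, adjusted p = 3.17e-06).

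Signalling genes of growth and patterning fell without exception in direction among those called. Of 43 genes tested, 33 were lower and 10 were not called, with a median of -2.18, beside 23.4% lower over all genes tested. The list covers ligands, binding proteins, receptors and targets of the IGF, TGF-beta, BMP, WNT, Notch, Hedgehog, FGF and PDGF pathways. Among ligands and their binding proteins, *Igfbp5* fell from 25.4 and 67.4 CPM to 0.954 and 2.08 CPM (log2 fold change -5.01, SE 1.01) and *Tgfb2* from 7.51 and 16 CPM to 0.545 and 0.692 CPM (-4.23, SE 0.634). The receptor *Pdgfra* fell from 268 and 318 CPM to 33.4 and 52.6 CPM (-2.78, SE 0.258). *Gli1*, the transcription factor that reports Hedgehog signalling, fell from 25.1 and 39.9 CPM to 1.77 and 1.85 CPM (-4.16, SE 0.488).

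The list of peritubular cells and extracellular matrix had the largest share of falling genes among the 16 lists. Of 43 tested, 38 were lower, 1 was higher and 4 were not called, beside 23.4% lower among all genes tested. The median was -2.23, and the summed level was 7177 and 8276 CPM at PND 7 and 1687 and 2433 CPM at PND 28. The proteoglycan *Vcan* went from 39.8 and 85.5 CPM to 2.73 and 3.46 CPM (log2 fold change -4.35, SE 0.438) and fibronectin, *Fn1*, from 154 and 199.8 CPM to 9.95 and 19.2 CPM (-3.63, SE 0.467). The collagens were uneven between the PND 28 mice. *Col1a1*, chosen after its values were seen, had 215 and 320.2 CPM against 6.95 and 46.6 CPM (-3.36, SE 0.649), with fitted values of -2.51 without PND 28 mouse 1 and -5.24 without PND 28 mouse 2. *Col3a1*, chosen in the same way, had 783 and 1116 CPM against 68.4 and 199.9 CPM, with -2.83 (SE 0.512) over all mice, -2.24 without PND 28 mouse 1 and -3.77 without PND 28 mouse 2. Among contractile genes, *Acta2* fell from 186 and 231 CPM to 69.7 and 84.9 CPM (-1.43, SE 0.264) and *Myh11* from 147 and 167 CPM to 41.6 and 66.2 CPM (-1.55, SE 0.268). The member that rose was the smooth muscle actin *Actg2*, from 5.91 and 14.2 CPM to 85.3 and 86.3 CPM (3.10, SE 0.492).

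Sertoli cells nurse the germ cells and stop dividing before puberty. Of 43 Sertoli cell genes tested, 26 were lower, 4 were higher and 13 were not called. The list's median was -1.54, and over all genes tested 23.4% were lower and 32.2% higher. *Amh* (ENSMUSG00000035262, chr10:80267993-80270393), the hormone of immature Sertoli cells, had 31.5 and 14.0 CPM at PND 7 and 1.5 and 1.85 CPM at PND 28 (log2 fold change -3.78, SE 0.601, adjusted p = 0.000286). *Inhba*, a subunit of activin and inhibin, had 7.81 and 21.6 CPM against 0 and 0 CPM, at least 57.3-fold lower (adjusted p = 8.51e-05). *Sox9*, which specifies the lineage, fell from 73.8 and 85.3 CPM to 5.73 and 12.9 CPM (-3.13, SE 0.460). The stem cell niche factor *Gdnf* fell from 9.31 and 16.5 CPM to 2.18 and 0 CPM (-3.36, SE 0.886, adjusted p = 0.00655).

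Other Sertoli cell genes fell, were not called or rose. *Fshr*, the receptor of follicle-stimulating hormone, had 25.2 and 15.5 CPM against 3.82 and 7.15 CPM (log2 fold change -1.93, SE 0.502, adjusted p = 0.00621), and it was not called without PND 28 mouse 1 (-1.5, adjusted p = 0.0733). *Pla2g4a*, a phospholipase, had 18.8 and 18.4 CPM against 8.18 and 8.54 CPM (-1.16, SE 0.308, adjusted p = 0.00709), and was not called without PND 28 mouse 1 (adjusted p = 0.0533). *Cst9*, a cystatin, stood at 267 and 266 CPM at PND 7 and 232 and 214 CPM at PND 28 (-0.26, SE 0.298, adjusted p = 0.473). The water channel gene *Aqp8* rose from 0 and 0 CPM to 37.1 and 42.5 CPM, at least 231-fold, *Tsx* from 1.2 and 0.134 CPM to 8.72 and 16.6 CPM (4.09, SE 0.825), and transferrin, *Trf*, which supplies iron to germ cells, from 18.7 and 31.8 CPM to 70.3 and 59.8 CPM (1.37, SE 0.323). *Gap43*, a growth cone protein, did not pass the filter on low counts.

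Spermatogonial genes fell by a similar size. Of 36 tested of 39 listed, 19 were lower, 1 was higher and 16 were not called, beside 23.4% lower over all genes tested. The list's median was -1.67. *Ccnd2*, a cyclin of dividing spermatogonia, fell from 165 and 158 CPM to 14.7 and 21.0 CPM (log2 fold change -3.19, SE 0.276, adjusted p = 4.42e-06), and the RNA-binding protein *Lin28a* from 26.0 and 22.8 CPM to 3.54 and 4.15 CPM (-2.67, SE 0.329). *Ret*, the receptor of GDNF, fell from 11.5 and 15 CPM to 1.64 and 2.77 CPM (-2.62, SE 0.605). Of later spermatogonia, *Kit* (-1.58, SE 0.267) and *Stra8*, which starts meiosis (-1.68, SE 0.295), both chosen after their values were seen, were near the list's median. *Id4*, an inhibitor of transcription linked to stem cells, rose from 4.91 and 5.64 CPM to 30.4 and 39.0 CPM (2.71, SE 0.336, adjusted p = 5.03e-05).

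Leydig cell genes moved in both directions. Of 29 tested of 34 listed, 12 were higher (41.4%), 5 were lower (17.2%) and 12 were not called, with a median of 0.37. Beside this, 32.2% of all genes tested were higher and 23.4% lower. With scaling by library totals, 8 of the list were higher and 6 lower. Several genes of steroid synthesis were higher. *Cyp17a1*, needed for androgens, went from 54.3 and 40.0 CPM to 437 and 329 CPM (log2 fold change 3.02, SE 0.539, adjusted p = 0.000633), and *Cyp11a1*, which makes pregnenolone from cholesterol, from 49.2 and 81.2 CPM to 318 and 256 CPM (2.14, SE 0.481, adjusted p = 0.00266). *Hsd3b6*, the enzyme of adult Leydig cells, had 0 and 0 CPM against 89.7 and 37.4 CPM, at least 369-fold higher, and the hormone *Insl3* 14.2 and 24.9 CPM against 131 and 98.1 CPM (2.56, SE 0.318).

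Leydig genes called lower included an androgen enzyme. *Hsd17b3*, which makes testosterone, fell from 64.5 and 47.6 CPM to 25.5 and 21.5 CPM (log2 fold change -1.25, SE 0.464, adjusted p = 0.0352). It was not called with RLE scaling (adjusted p = 0.0557) or without PND 7 mouse 1 (0.133), PND 28 mouse 1 (0.108) or PND 28 mouse 2 (0.165). *Thbs2*, a matrix protein of fetal Leydig cells, fell from 61.8 and 56.7 CPM to 3.0 and 4.38 CPM (log2 fold change -4.03, SE 0.406), and *Nr2f2*, a nuclear receptor of interstitial progenitors, from 85.8 and 135 CPM to 9.68 and 15.5 CPM (-3.15, SE 0.349). *Star*, the cholesterol carrier, had 48.3 and 17.9 CPM against 86.3 and 60.9 CPM and was not called (1.15, SE 0.581, adjusted p = 0.106), but it was without PND 7 mouse 1 (2.06, adjusted p = 0.0253). *Vcam1*, an adhesion molecule, rose from 46.6 and 46.2 CPM to 142 and 83.3 CPM (1.28, SE 0.378, adjusted p = 0.0121), and was not called without PND 7 mouse 2 (adjusted p = 0.051) or PND 28 mouse 1 (adjusted p = 0.126).

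Vessel genes leaned downwards, and their calls were fragile. Of 16 tested, 8 were lower, 3 were higher and 5 were not called, beside 23.4% lower and 32.2% higher over all genes tested. *Cdh5*, the cadherin of endothelium, fell from 31.5 and 44.3 CPM to 5.73 and 10.4 CPM (log2 fold change -2.26, SE 0.368, adjusted p = 0.000344), and *Cldn5*, a tight junction protein, rose from 2.0 and 2.96 CPM to 8.04 and 11.8 CPM (1.99, SE 0.461, adjusted p = 0.00311). Without PND 28 mouse 1, 4 were lower, and *Esam* (adjusted p = 0.0519) and *Eng* (0.13) lost their call. *Erg* lost it without PND 7 mouse 1 (0.0839) or PND 28 mouse 2 (0.0778), and *Eng* also without PND 7 mouse 2 (0.111). Without PND 7 mouse 2 or without PND 28 mouse 2, 1 was higher in place of 3, since *Sox17* (0.0883 and 0.0771) and *Vwf* (0.063 and 0.067) were not called.

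Of 18 macrophage and blood genes tested, 3 were higher (16.7%), 2 were lower (11.1%) and 13 were not called. Both shares were below those of all genes tested, 32.2% higher and 23.4% lower. The rise of *Aif1*, used as a macrophage marker, was large, from 2.70 and 0.269 CPM to 205 and 227 CPM (log2 fold change 7.07, SE 0.795, adjusted p = 2.52e-05), and it stood apart from the list. The macrophage receptor *Csf1r* had 12.6 and 17.3 CPM against 16.4 and 18 CPM, a log2 fold change of 0.20 (SE 0.392, adjusted p = 0.678). *Lyz2* and *Alas2* rose and *Hbb-b1* and *Hbb-b2* fell, each by less than 5-fold, and each lost its call when any of several mice was left out. Leaving out PND 7 mouse 1 or PND 28 mouse 1 left *Aif1* as the only one higher, with adjusted p-values of 0.0603 and 0.107 for *Lyz2* and 0.177 and 0.0938 for *Alas2*. The globin genes, which are near-identical copies, were not called without PND 7 mouse 2 (adjusted p = 0.142 and 0.118).

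Cell cycle genes moved in both directions. Of 44 tested, 10 were higher, 14 were lower and 20 were not called, beside 32.2% higher and 23.4% lower over all genes tested, with a median of -0.29. *Ccnb2*, a mitotic cyclin, rose from 20.9 and 18 CPM to 262 and 230.1 CPM (log2 fold change 3.66, SE 0.287, adjusted p = 2.24e-06), the kinase *Aurka* from 11.7 and 12.1 CPM to 149.5 and 109 CPM (3.44, SE 0.284), and *Plk1* from 8.91 and 6.31 CPM to 57.3 and 45.2 CPM (2.74, SE 0.344). Those that fell include *Ccnd2* and genes of DNA replication. *Cdt1*, which licenses origins, fell from 13.6 and 15.2 CPM to 2.04 and 1.15 CPM (-3.10, SE 0.550) and *Mcm4*, part of the replicative helicase, from 59.7 and 40.3 CPM to 7.77 and 12.5 CPM (-2.33, SE 0.336).

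Ribosomal protein genes leaned downwards, with 30 of 74 tested lower (40.5%), beside 23.4% of all genes tested. A further 1 was higher and 43 were not called, and the median was -0.92. *Rps26* fell from 122 and 128 CPM to 16.9 and 33.9 CPM (log2 fold change -2.32, SE 0.402), and *Rpl35* rose from 0.801 and 0 CPM to 19.4 and 8.77 CPM (4.97, SE 0.903). Their many processed copies and the small nucleolar RNAs in their introns make these counts uncertain. *Rpl35* also overlaps *Wdr38* on the opposite strand, so its counts may include reads of that gene. The testis form *Rpl39l* rose from 50.9 and 38.8 CPM to 637 and 492 CPM (3.65, SE 0.338), while *Rpl39* fell from 14.5 and 14.0 CPM to 2.32 and 2.77 CPM (-2.49, SE 0.422).

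**Figure D3:**
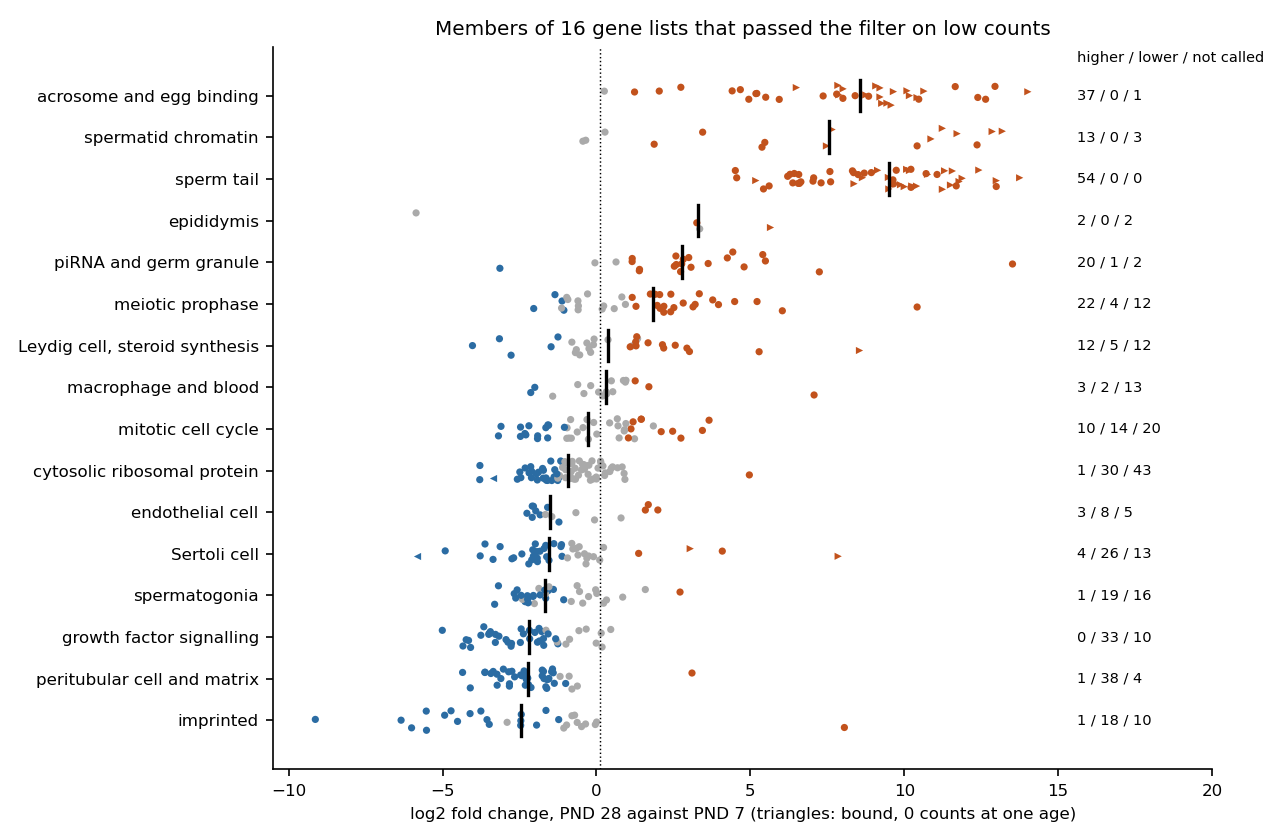
Log2 fold change of PND 28 against PND 7 for each tested member of 16 gene lists, orange for genes called higher, blue for lower and grey for not called, with triangles at the bound of genes with 0 counts at an age, black bars at the list medians and a dotted line at the median of all genes tested (0.10). Spermatid lists sit far to the right, with medians of 9.49, 8.58 and 7.56 when genes of 0 counts are at their bound, and the imprinted, matrix and signalling lists sit to the left, with medians of -2.46, -2.23 and -2.18.

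The ages between the ends show how the change was spread over time. Of the 3948 genes called lower, 1746 (44.2%) had a mean CPM that fell at every step from PND 7 over 14, 17 and 21 to 28, beside 1982 (11.8%) of all genes tested. Of the 5430 called higher, 2372 (43.7%) rose at every step, beside 2517 (14.9%) of all. The ends fix the direction of the called genes, so their share is a description. Without PND 14 mouse 1, the library with spermatid transcripts, 1340 of the genes called lower fell at every step (33.9%) and 2077 of those called higher rose at every step (38.3%). Without PND 17 mouse 1, the library with the most epididymal transcripts, these were 1415 (35.8%) and 1772 (32.6%). In the matrix list 20 of 43 genes fell at every step, in the signalling list 16 of 43, in the Sertoli cell list 14 of 43, in the imprinted list 11 of 29 and in the spermatogonial list 7 of 36.

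Among the 6 largest steady falls were those of *Zim1*, *Bcan*, *Plagl1*, *Dnm3os* and *Nav1*. *Zim1* had mean CPM of 7.05, 5.33 and 0.652 at PND 14, 17 and 21, and *Bcan* of 6.02, 3.70 and 0.914. *Plagl1* had 12.4, 5.99 and 4.56 and *Dnm3os* 24.3, 11.6 and 8.34 at these ages. Most of each fall was thus complete by PND 14, and *Zim1* and *Bcan* dropped again between PND 17 and 21. Among all genes called lower, 1474 were first at or below 50% of their PND 7 level by PND 14, another 637 by PND 17, 981 by PND 21 and 853 only at PND 28. Without PND 14 mouse 1 these numbers were 1883, 324, 919 and 819.

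Rises were marked at 50% of the end level and falls at 50% of the starting level, so their timings are not comparable. Of the genes called higher, 1273 first reached 50% of their PND 28 level by PND 14, another 316 by PND 17, 1677 by PND 21 and 2162 only at PND 28, and without PND 14 mouse 1 these were 1446, 200, 1629 and 2153. *Ldhc* had mean CPM of 709, 1163 and 2982 at PND 14, 17 and 21 and *Tcp11* of 79.3, 118 and 409. *Piwil1* was higher at PND 21, at 592 CPM, than at PND 28. *Prm1* had means of 1.18 and 6.18 CPM at PND 17 and 21, and *Tnp2* of 3.54 and 10.8 CPM, so that both were under 1% of their PND 28 level at PND 21. At PND 14 the 2 mice differed, with 52.7 and 1.05 CPM of *Prm1*, 35.5 and 3.02 CPM of *Tnp2* and 61.0 and 3.02 CPM of *Akap4*. The ages between were also set against both ends, the mean of PND 14 and 17 against the mean of PND 7 and 28 in the same edgeR fit. Of 16860 genes, 759 (4.5%) were higher and 728 (4.32%) lower in the middle.

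**Figure D4:**
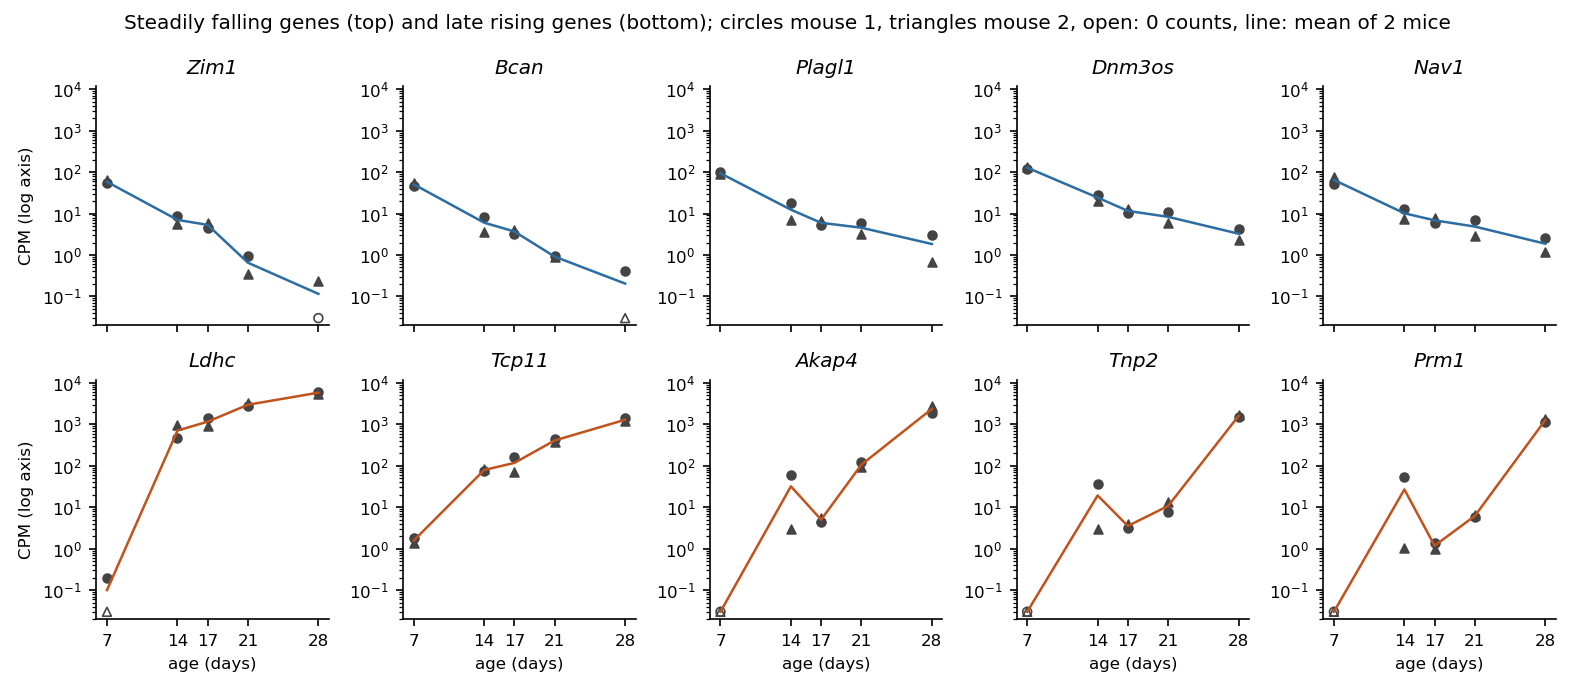
CPM on a log axis against age in days, for 5 genes with a steady fall of the mean (top, blue) and 5 that rose (bottom, orange). Each mouse has a symbol, open at the bottom edge for 0 counts, and lines run through the mean of 2 mice. Without PND 14 mouse 1, *Bcan* does not fall from PND 14 to 17. *Zim1* drops from 53.4 and 63.3 CPM to 0 and 0.231 CPM, and the bump of *Akap4*, *Tnp2* and *Prm1* at PND 14 is that of mouse 1, which has 52.7 CPM of *Prm1* beside 1.05 CPM in mouse 2.

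Position on the chromosomes set X-linked genes apart in share. Of 745 X-linked genes tested, 20.5% were higher and 40.7% were lower at PND 28, and their median log2 fold change was -0.90. Of 16087 autosomal genes, 32.8% were higher and 22.6% lower, with a median of 0.15, and the medians of single autosomes lay between -0.04 and 0.36. Of the 153 X-linked genes called higher, 118 rose at least 16-fold by the fitted value, *Akap4* among them. The same held for 2364 of the 5274 autosomal genes called higher. Other classes differed in direction. Of 1039 processed transcripts and lincRNAs tested, 59.3% were higher, with a fitted median of 3.59, and of 1047 protein-coding genes with a Rik symbol 55.3%. Pseudogenes (482 tested) were higher in 37.8%, and protein-coding genes in 30.8%, with 25% lower. The differences between these classes were not tested.

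**Figure D5:**
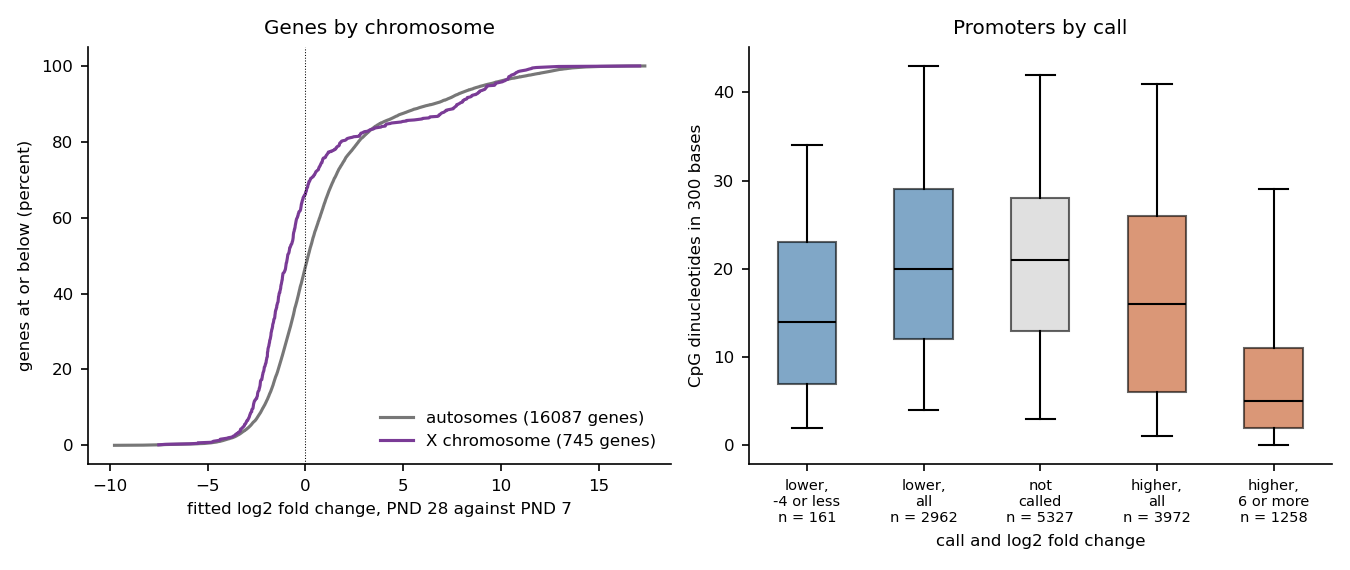
Left, cumulative share of genes (percent) against the fitted log2 fold change for 16087 autosomal and 745 X-linked genes, in which the X-linked curve lies to the left up to a few-fold rise. Right, number of CpG dinucleotides in 300-base promoters by call and fitted log2 fold change. Boxes run from the lower to the upper quartile, with lines at medians and whiskers at the 5th and 95th percentiles. The median is 5 for genes with a fitted log2 rise of 6 or more and 19 over all genes tested.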

How the data were processed

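Whole testes of 10 mice, 2 at each of 5 ages, gave RNA that was depleted of ribosomal RNA with RiboMinus probes and read as 50-base sequences on SOLiD 4. As the study's methods describe, LifeScope placed reads on the mm9 genome, sequences matching rRNA, tRNA or repeats were discarded together with reads that aligned at over 10 places, and uniquely placed reads on exons were counted. The authors deposited for each gene this count and an RPKM value, which is scaled to transcript length and library size. The use of strand in the counting is not given in the sources used here. Repeats and near-identical copies thus lose reads, and totals of 3994026 to 13559548 counts per mouse limit low genes.

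The barcodes of a PND 7 mouse were summed. Of 37675 genes listed, 37310 matched the mm9 annotation by identifier and coordinates, and the others had 0 counts. Counts were tested with edgeR 4.0.16 (filterByExpr, TMM, glmQLFit, glmQLFTest) in R 4.3.3 on all 10 mice by age, with calls at an adjusted p under 0.05 and 2-fold. CPM are scaled by TMM. On simulated counts for this comparison over 16860 genes, 164 of 200 genes changed 4-fold were called, none in the wrong direction, and 7 unchanged genes were called. The changed genes were drawn from better expressed genes, with as many raised as lowered. Recovery of low genes, and scaling when most genes change, were not tested. Alternatives were DESeq2 1.42.0, limma 3.58.1 on log2(RPKM + 1) or log2(RPKM + 0.1), and other scalings and filters. The limma calls asked for p under 0.01 and a difference of 10 RPKM. Each mouse of the ends was also left out in turn, as was PND 14 mouse 1. The fit was not repeated without any of the remaining mice. Summaries used Python 3.11.15, pandas 2.3.3, numpy 2.4.6 and scipy 1.17.1, and figures matplotlib 3.10.9. RefSeq promoters were found for 12261 of the 16860 genes tested.

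Genes were named by rule: the 12 largest fitted rises and falls averaging 10 CPM or more across the 4 mice, up to 4 called members per list and direction of at least 5 CPM, the pairs, genes the study names, the 6 largest steady falls, and the 6 largest excesses and deficits at the middle ages. Some genes that these rules select are not reported here. The other genes named, such as *Csf1r*, *Hist1h1a*, *Hist1h2ba* and the epididymal genes, were chosen after their values were seen. The comparison, lists and rules were chosen with earlier results of these data known. Replicate numbers name mice only: deviations of same-numbered mice of PND 7 and 28 correlated at 0.062, and over all pairs of ages at -0.25 to 0.40.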

Additional observations from a re-analysis of the deposited data

How the results depend on the processing

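Of 152 named genes tested, 126 kept their direction and their side of the threshold in the comparison of the ends under every alternative other than limma on RPKM. In the limma analysis, which also asks for a difference of 10 RPKM, 42 lost their call, and 2698 genes were higher and 1144 lower with log2(RPKM + 1), or 2687 and 1127 with log2(RPKM + 0.1), in place of 5430 and 3948. X-linked genes were then 57 higher and 95 lower, or 57 and 94, in place of 153 and 303, and 73 were higher among genes of at least 10 CPM in 2 mice, a filter that leaves fewer genes. Leaving out 1 of the 4 mice gave 4868 to 6159 genes higher and 3030 to 4119 lower, 138 to 208 X-linked genes higher and 247 to 309 lower, and 1529 to 1791 steady falls, and moved the fitted change of 53 of the 152 named genes by over 1.5-fold. Scaling mattered for the balance: the median log2 fold change over all genes was 0.10 with TMM, 0.27 with RLE (5853 higher, 3427 lower) and -0.22 with library totals (4743 and 4984), and DESeq2 called 5800 and 3318. Sign changes came in 7 named genes, none called over all mice. *Csf1r* fell below 0 with library totals (-0.13) and with limma (-0.086 and -0.11). Leaving out 1 mouse gave *Adam7* values from -4.09 to 7.44, *Crisp1* from -6.85 to 0.76, *Spink8* from -5.39 to 2.75, *Ppp2r2c* from -1.63 to 3.69, *Pgk1* from -2.68 to 0.0012 and *Zfp57* from -0.029 to 1.08. The signs of the 16 list medians were the same under these scalings. With the replicate number as a block, 5391 genes were higher and 3837 lower, and the numbers are not known to pair the mice. Without PND 14 replicate 1, an alternative chosen after the data were seen, 5573 were higher and 3981 lower. The contrast of the middle ages with the ends was less stable: 759 genes were higher in the middle, but 1306 with library totals, 1212 with no filter and 499 to 1361 when 1 mouse of the ends was left out, 499 without PND 28 mouse 2 and 1361 without PND 7 mouse 1. The 728 genes lower in the middle became 450 without PND 28 mouse 1, in a range of 450 to 820 when 1 mouse was left out, and were 838 with RLE and 882 with no filter. The cause of these moves was not tested. With only the 4 mice of the ends, the middle contrast could not be run. Genes with 0 counts at an age are limited by depth to a bound.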

Other observations

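The contrast of the middle ages with the ends called 759 genes higher (4.5%) and 728 lower (4.32%) with edgeR's quasi-likelihood test, and it shares its mice with the comparison of the ends. A gene with no counts at PND 7 that stays high at PND 28 can pass this test too, since the mean is taken on the log scale, and the 6 genes with the largest excess had 0 counts at PND 7 and were expressed at PND 28 (1700006A11Rik, *Gm14244*, 1700016M24Rik, *Gm10505*, 4933440M02Rik and *Fsip2*). Genes with a peak or dip were therefore counted by their mice, a step chosen after the data were seen. In 966 genes (5.73%) all 4 mice of PND 14 and 17 lay above all 4 of PND 7 and 28, and 203 of these were also called higher. In 540 (3.2%) they lay below, and 270 of these were also called lower.

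*Ppp2r2c*, a regulatory subunit of protein phosphatase 2A, had 6.01 and 0.134 CPM at PND 7, 31.7 and 33.0 at PND 14, 46.0 and 44.5 at PND 17, and 2.32 and 1.38 at PND 28, a log2 difference of 3.93 between middle and ends (adjusted p = 0.0017). *Prss50*, a testis protease, had 12.1 and 11.8 CPM at PND 7, 74.0 and 26.9 at PND 14, 29.4 and 31.5 at PND 17, and 11.5 and 6.23 at PND 28 (1.91, adjusted p = 0.00342). Among dips, *Hsd17b3*, which makes testosterone in adult Leydig cells and is also known from immature Sertoli cells, had 64.5 and 47.6 CPM at PND 7, 8.03 and 4.6 at PND 14, 3.35 and 4.84 at PND 17, and 25.5 and 21.5 at PND 28 (-2.86, adjusted p = 0.00083). *Zfp57*, a zinc finger protein that maintains imprints, had 16.4 and 35.9 CPM at PND 7, 5.61 and 3.42 at PND 14, 1.74 and 2.90 at PND 17, and 35.3 and 34.2 at PND 28 (-3.26, adjusted p = 0.000228). These 4 genes were chosen, after their values were seen, from genes whose middle mice did not overlap with those of the ends. At the ends alone *Ppp2r2c* was not called, and leaving out a PND 7 mouse gave calls in opposite directions, higher at PND 28 without mouse 1 (log2 fold change 3.69, adjusted p = 0.00259) and lower without mouse 2 (-1.63, adjusted p = 0.00511). *Cst8*, which is expressed in testis and epididymis, had 10.9 and 26.1 CPM at PND 7, 3.15 to 9.02 at PND 14 and 17, and 149.7 and 202 at PND 28.

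The 6 genes with the largest deficit in the middle were *Pex5l*, *Prr22*, *Tmsb15a*, *Stambpl1*, 4930505A04Rik and *Trpm6*, and *Prr22* and *Tmsb15a* were not called without PND 7 mouse 1 (adjusted p = 0.986 and 0.968). No outlier test was run on these data, since each age has 2 mice.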
